A study of Rattus norvegicus with 6 samples.

Results

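Matrix metalloproteinases, Adam and Adamts proteases, serpins, secreted and membrane-bound serine proteases and the inhibitors of these enzymes were compared between rat endometrial epithelial organoids (rEEOs) and rat bone marrow mesenchymal stem cells (rBMSCs). Genes were chosen by symbol (Mmp, Timp, Adam, Adamts, Adamtsl, Serpin without the collagen chaperone Serpinh1, Spink, Spint, Plau, Plaur, Plat, Prss, St14, Tmprss, Klk and Htra) and by a sum of at least 10 counts over the 6 libraries. Of the 13728 genes held, 88 met both conditions, and 25 further genes with such a symbol stayed under the sum. Serpinb7 and Adamts16 lay just inside with 10 counts, and Mmp24 just outside with 9.

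The rEEOs were grown from gland fragments of the uteri of young female Sprague-Dawley rats, from which stromal cells had been sieved off. They were used at low passage and grown in Matrigel with an expansion medium that held EGF, FGF10, Noggin, R-Spondin-1, Wnt3a, the Alk inhibitor A83-01 and the ROCK inhibitor Y27632. The rBMSCs were purchased RFP-labeled rat cells grown in dishes in medium with fetal bovine serum. RNA from 3 samples of each was sequenced. The labels number the samples and do not say whether they were separate cultures or animals, so the p-values measure the spread between these samples, which may be technical. Cell type, tissue, medium and substrate differ together between the groups and cannot be told apart, and in bulk RNA neither can fewer cells of a type and less RNA per cell.

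Proteases at the cell surface and in the matrix work with inhibitors from the same or neighbouring cells. Metalloproteinases carry a zinc ion in the active site and are blocked by Timp proteins. Urokinase and tissue plasminogen activator turn plasminogen into plasmin and are blocked by serpins such as Serpine2, which trap a protease by forming a covalent complex with it. Epithelial cells carry matriptase, prostasin and other serine proteases on their membranes, and the Kunitz-type inhibitors Spint1 and Spint2 hold them in check. In the endometrium such enzymes are known for tissue breakdown and repair over the cycle and at implantation, while mesenchymal cells are known as a main source of enzymes that process collagen and proteoglycans.

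The held genes took between 10457958 and 15421501 expected counts per library, and 58 to 63 members had a count in a rBMSCs library compared to 68 to 79 in a rEEOs library. The labels were checked by marker genes. The 11 epithelial markers held summed to between 2.61 and 2.97 TPM (transcript level scaled for length and library size) in rBMSCs and to between 4986 and 5552 TPM in rEEOs, and all 11 were higher in rEEOs. Of 12 mesenchymal markers, 11 were lower in rEEOs, with sums of 41384 to 43703 TPM in rBMSCs compared to 172 to 298 TPM in rEEOs. Nearly all of the rEEOs sum was Vim. Of 7 haematopoietic markers, 1 (Cd68, a lysosomal protein also found outside blood cells) was higher in rEEOs, and the list summed to 0.29 to 0.79 TPM compared to 32.8, 134 and 106 TPM in rEEOs replicates 1, 2 and 3. The 4 smooth muscle markers were lower in rEEOs (5928 to 6719 TPM compared to 0.72 to 1.08 TPM), and 1 of 5 endothelial markers was lower, with sums under 1 TPM in every library. The rEEOs libraries differed more among themselves than the rBMSCs libraries: the median SD of log2(CPM + 1), where CPM scales the counts to a common library size, was 0.340 in rEEOs and 0.088 in rBMSCs, and 0.164 in rEEOs without replicate 1.

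Many members were read in mainly 1 of the cell types. Of all genes, 10607 reached 10 counts in at least 3 libraries and entered edgeR's quasi-likelihood fit, 59 members among them. A gene was called higher or lower in rEEOs at an absolute log2 fold change above 2 and a Benjamini-Hochberg adjusted p below 0.05. Of the 59, 23 (39%) were higher and 24 (40.7%) lower in rEEOs, compared to 16.3% and 13.3% of all genes tested. The median absolute log2 fold change was 6.22 over the members tested and 0.99 over all genes tested. The signed median was -0.20 over the members and 0.08 over all genes. The filter shapes these shares. Of the members tested, 15 reached 10 counts in rEEOs libraries alone and 11 in rBMSCs libraries alone, and such genes had to differ to be tested at all. Among the 22 with at least 10 counts in all 6 libraries, 4 were higher, 9 were lower and 9 were not called, and of all 8353 genes with such counts, 7.21% were higher and 6.9% lower. Of the 12 not called, 4 (Timp1, Adam17, Adamts4 and Adamtsl5) had an adjusted p below 0.05 with a smaller fold change. In the 47 members called, the TPM values of the groups did not overlap, which also held for 99.7% of all genes called and for 69.6% of all genes tested. Among the 29 not tested, 23 had more counts in rEEOs and 6 more in rBMSCs, and 8 of them reached a mean of 1 TPM in rEEOs compared to none in rBMSCs.

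**Figure D1:**
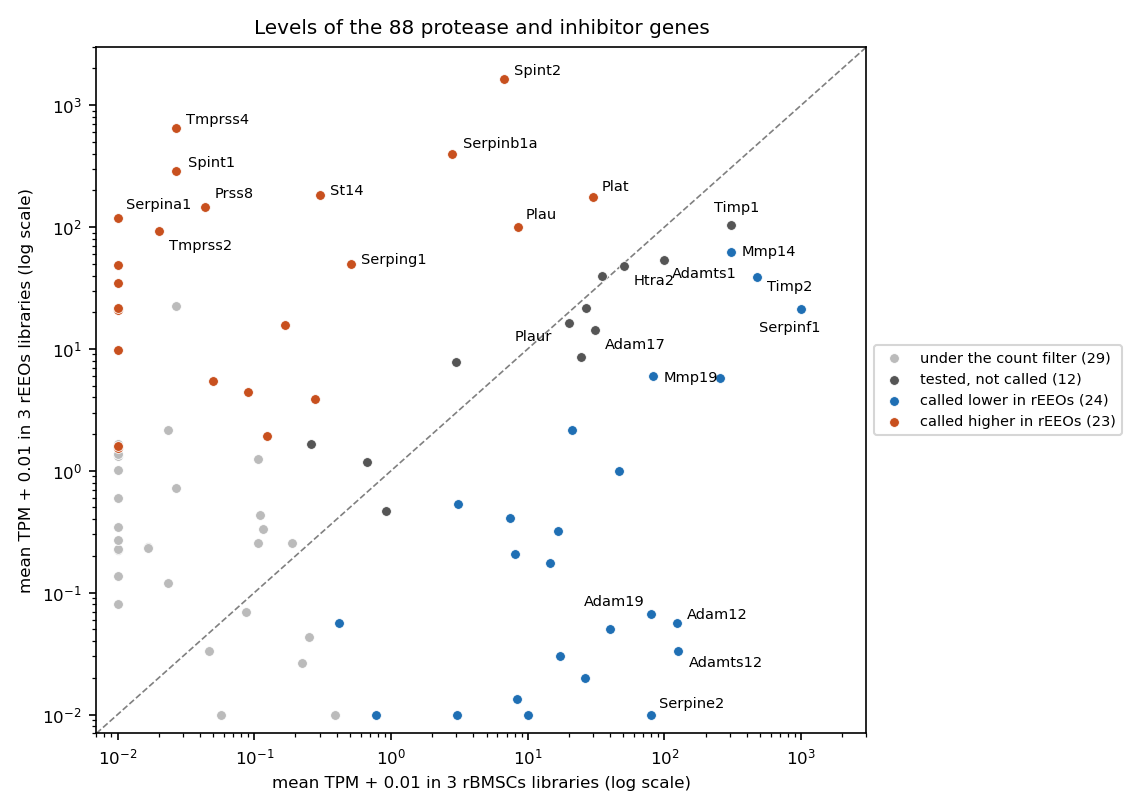
Mean TPM plus 0.01 over 3 libraries of each cell type for the 88 members, rBMSCs on the horizontal and rEEOs on the vertical axis, both on log scales, with the dashed line marking equal levels. Orange points (23) were called higher and blue points (24) lower in rEEOs; 9 members reach 100 TPM in rEEOs and 7 in rBMSCs, and Timp1 does so in both.

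Levels below are TPM, which allows for transcript length, and means carry the SD over 3 libraries. Where no library of the lower cell type had a count, the fold is a bound against 3 counts per library. Where those libraries had 1 to 3 counts in all, the ratio of normalised counts is given with its 95% exact interval, which covers counting error only. Each log2 fold change is rEEOs over rBMSCs and stands with its standard error (SE).

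The members summed to somewhat higher totals in rEEOs, 3341 to 3459 TPM in rBMSCs and 4411 to 4625 TPM in rEEOs, and different genes filled them. In rBMSCs, Serpinf1, Timp2, Mmp14 and Timp1 had the highest mean levels. In rEEOs, Spint2, Tmprss4, Serpinb1a and Spint1 with St14 (replicates 1 and 2) or Plat (replicate 3) made up between 63.4% and 74.0% of the sum. The 24 genes of inhibitor families among the members (Timp, Spint, Spink and serpin) held 62.7% to 65.9% of the sum in rBMSCs and 55.1% to 63.5% in rEEOs. These shares count Serpinf1, a serpin without inhibitory activity, with 988 ± 49.4 TPM in rBMSCs and 21.2 ± 13.1 TPM in rEEOs. The overlap of the shares depends on counting it. Of these 24, 8 were higher, 5 lower and 2 not called in rEEOs, and 9 were not tested. The shares over all genes tested were 16.3% higher and 13.3% lower.

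**Figure D2:**
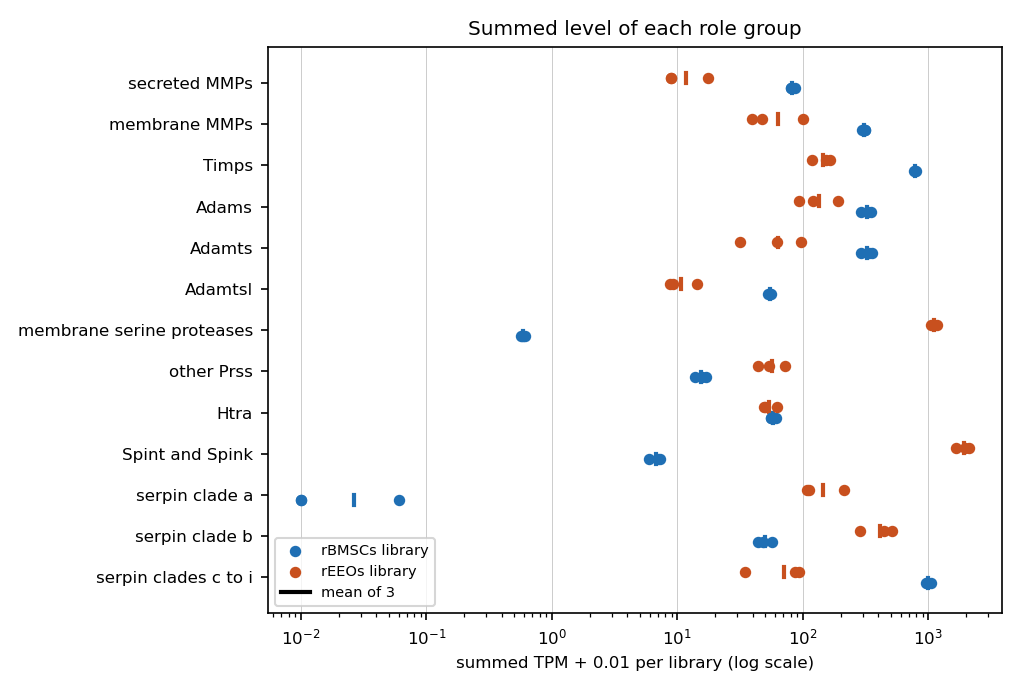
Summed TPM plus 0.01 of each role group other than plasminogen activation in every library, on a log scale; blue points are rBMSCs libraries, orange points rEEOs libraries, and the ticks mark the mean of 3. Membrane serine proteases and the Spint and Spink group lie far higher in rEEOs, the Timp and Adamts groups lie higher in rBMSCs, and the Htra groups overlap.

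Membrane serine proteases were nearly absent from the rBMSCs counts and summed to a high level in rEEOs, with 0.58 ± 0.02 TPM in rBMSCs and 1106 ± 68.6 TPM in rEEOs. All 6 of the 11 members that were tested were higher in rEEOs (St14, Prss8, Tmprss2, Tmprss4, Tmprss9 and Tmprss13), and none was lower. Among all genes tested, 16.3% were higher. Prss8, Tmprss2, Tmprss4, Tmprss9 and Tmprss13 reached 10 counts in rEEOs libraries alone, and such genes had to differ to be tested at all. The 5 not tested were Tmprss3, Tmprss11a, Tmprss11b, Tmprss11e and Tmprss11g, each with at most 3 counts over the rBMSCs libraries. Tmprss4, a transmembrane serine protease of many epithelia, was the most abundant, with 596, 686 and 648 TPM in rEEOs and a single count in the 3 rBMSCs libraries. Its ratio of normalised counts was 47853, with an interval from 8588 to 1890150 (edgeR adjusted p = 7.91e-06). The rEEOs values lay close together and far above every rBMSCs library.

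St14, which encodes matriptase, an activator of other proteases and of growth factor precursors, had 255, 122 and 174 TPM in rEEOs and 0.26, 0.31 and 0.3 TPM in rBMSCs. The fitted log2 change was 9.49 (SE 0.27, edgeR adjusted p = 4.59e-06). Prss8, which encodes the GPI-anchored protease prostasin, had 199, 105 and 137 TPM in rEEOs and 2 counts in all of rBMSCs, a ratio of 5355 with an interval from 1482 to 44221. Replicate 1 was highest and replicate 2 lowest for both genes, and neither overlapped with rBMSCs.

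Tmprss2, another transmembrane protease, had 103, 74.3 and 99.5 TPM in rEEOs and 1 count in rBMSCs, a ratio of 9563 (interval 1716 to 377761). The single rBMSCs counts of Tmprss2, Tmprss4 and Spint1 all lay in replicate 2 and both counts of Prss8 in replicate 3, so that without that library no rBMSCs count was left to set a ratio. Tmprss13 had no count in rBMSCs and 18.9, 54.7 and 29.9 TPM in rEEOs, at least 448-fold higher. Its rEEOs order was the reverse of that of St14, with replicate 2 highest. Tmprss9, which carries more than 1 protease domain, was low in rEEOs with 1.62, 2.4 and 1.73 TPM (log2 fold change 4.26, SE 0.43, edgeR adjusted p = 0.000273). With limma on log2(TPM + 1), which shrinks the change of low genes, it was 1.38 and short of the threshold, which left 5 of the 6 higher.

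Both Kunitz-type inhibitors were higher in rEEOs. Spint2, which inhibits matriptase, prostasin and other serine proteases, was the most abundant member in any library, with 1384, 1696 and 1792 TPM in rEEOs and 7.22, 6.88 and 5.96 TPM in rBMSCs. On the log2 scale the difference was 8.24 (SE 0.35, edgeR adjusted p = 1.14e-05). Spint1, the closest partner of matriptase, had 290, 268 and 302 TPM in rEEOs and 1 count in the 3 rBMSCs libraries. Its ratio of normalised counts was 21339 (interval 3830 to 842889). Its rEEOs values had an SD of 17.4 TPM around a mean of 286 TPM, a narrower spread than that of St14 (184 ± 66.8 TPM). The Kazal-type inhibitor Spink5, named after its values were seen, had 34.9 counts in rEEOs replicate 1 and none in the other rEEOs libraries, and was not tested. In rEEOs, St14 stood at 0.638 ± 0.218 of the level of Spint1 and Prss8 at 0.0942 ± 0.0436 of that of Spint2. From CPM in place of TPM, the log2 ratio was -0.15 for St14 to Spint1 and -2.39 for Prss8 to Spint2. In rEEOs replicate 1, St14 had 9319 counts and Spint1 7241, so which of them was higher there depends on the scale. These are ratios of transcript levels and not of enzyme activity.

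**Figure D3:**
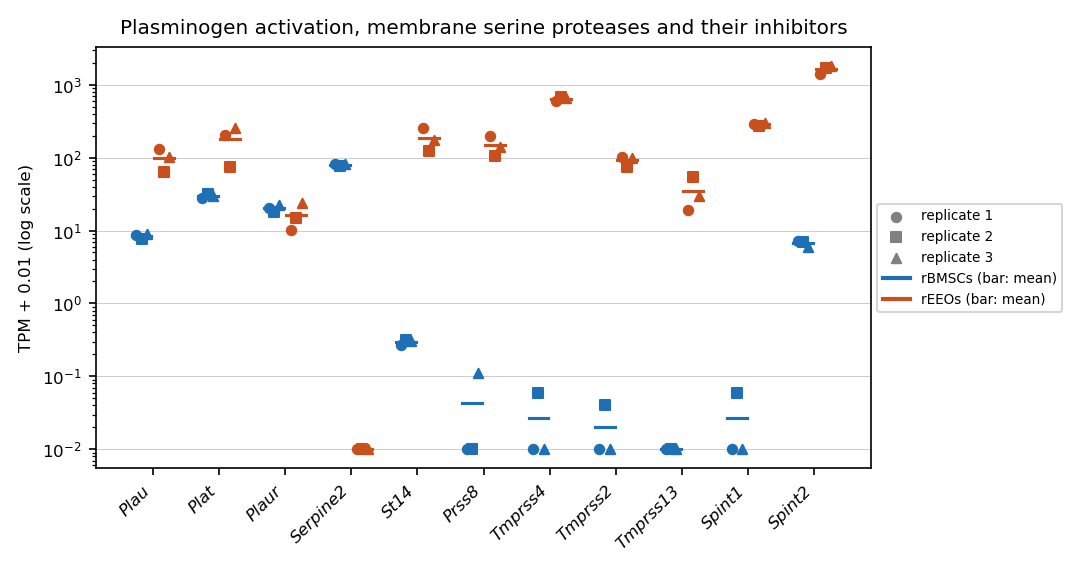
TPM plus 0.01 on a log scale in every library for plasminogen activation genes, membrane serine proteases and the Spint inhibitors; symbols mark replicates 1, 2 and 3, colors the cell type, and bars the mean of 3. Plau, Plat, the membrane proteases and Spint1 and Spint2 lie higher in rEEOs, Serpine2 lies higher in rBMSCs, and Plaur overlaps.

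The start regions of both inhibitor genes are shown because these genes differ by such a margin and their start regions hold a letter match in common. The sequences are the 250 bases before the RefSeq start in the GRCr8 assembly, 5′ to 3′ on the gene's strand, for Spint1 at chr3:126685031-126685280, plus strand and for Spint2 at chr1:93708092-93708341, minus strand. Capitals mark TGACTCA, the AP-1 motif, and CAGGTG or its reverse complement CACCTG, an E-box core that epithelial repressors such as Snail and Zeb proteins are known to bind.
Spint1: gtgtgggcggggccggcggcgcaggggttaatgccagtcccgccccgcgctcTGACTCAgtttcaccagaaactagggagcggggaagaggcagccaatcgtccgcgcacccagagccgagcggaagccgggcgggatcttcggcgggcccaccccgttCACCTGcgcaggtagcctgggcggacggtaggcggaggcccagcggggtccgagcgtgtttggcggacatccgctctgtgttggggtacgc
Spint2: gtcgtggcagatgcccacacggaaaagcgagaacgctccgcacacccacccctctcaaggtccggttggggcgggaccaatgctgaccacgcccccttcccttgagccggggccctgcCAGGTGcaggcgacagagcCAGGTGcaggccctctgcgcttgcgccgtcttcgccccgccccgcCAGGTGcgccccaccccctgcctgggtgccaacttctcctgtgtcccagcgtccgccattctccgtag
Spint1 held the AP-1 motif 198 bases and the E-box 91 bases before the start. Spint2 held 3 E-boxes, 132, 113 and 68 bases before the start, and 3 or more occurred in 0.359% of the 33469 windows of all genes. RefSeq windows of 250 bases before to 50 after the start were held for 57 of the 88 members, 67 windows in all. The E-box, searched on both strands, was in 14 of these 67 windows (20.9%) compared to 18.8% of all windows. It was in 7 of the 12 windows of members called higher (58.3%) and in 2 of the 18 windows of members called lower (11.1%). Members not called had it in 0 of 9 windows and members not tested in 5 of 28 (17.9%). Windows were held for 12 of the 23 members called higher, Spint1 and Spint2 among them. This motif was chosen after the values were seen, and no test was run on it. These are matches of letters and not sites shown to be bound.

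Both plasminogen activators were higher in rEEOs, and the inhibitor Serpine2 was lower. Plau, which encodes urokinase, had 132, 63 and 103 TPM in rEEOs and 8.54, 7.66 and 9.02 TPM in rBMSCs (log2 fold change 3.78, SE 0.21, edgeR adjusted p = 2.53e-05). Plat, which encodes tissue plasminogen activator, had 205, 75.4 and 251 TPM compared to 28.3, 31.5 and 30 TPM (log2 fold change 2.79, SE 0.42, edgeR adjusted p = 0.00145). Replicate 2 was the lowest rEEOs library for both, and still lay above every rBMSCs library.

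Serpine2, or protease nexin-1, which inhibits thrombin and plasminogen activators, had 82.2, 76.7 and 80.7 TPM in rBMSCs. It had no count in any rEEOs library and was at least 494-fold lower there (edgeR adjusted p = 1.72e-05). Plaur, the urokinase receptor, had 20.3, 17.9 and 22 TPM in rBMSCs and 10.3, 14.9 and 23.9 TPM in rEEOs, and the groups overlapped. This came to 0.04 on the log2 scale (SE 0.40, edgeR adjusted p = 0.94), and its sign changed between settings.

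The matrix metalloproteinases and Timp inhibitors that were tested were lower in rEEOs or were not called, and 5 metalloproteinases were under the count filter. Mmp14, a membrane-anchored enzyme that cleaves collagen and activates other metalloproteinases, had 314, 295 and 312 TPM in rBMSCs and 100, 39.2 and 47.4 TPM in rEEOs. edgeR fitted a log2 change of -2.13 (SE 0.24, adjusted p = 0.000438), close to the threshold. It was -1.94 without rEEOs replicate 2 and -1.73 with library sizes alone, both past the adjusted p and short of the fold. Mmp17, anchored by GPI, had about 1 TPM or less in every library, and the groups overlapped (log2 fold change -0.87, SE 0.57, edgeR adjusted p = 0.217).

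Of the 6 secreted matrix metalloproteinases among the members, Mmp19 alone was tested. Mmp2 and Mmp10 were not among the members. The table analysed is a partial copy, so this does not show that they were absent from the cells. It had 86.6, 80.2 and 80.2 TPM in rBMSCs and 6.37, 6.77 and 4.81 TPM in rEEOs (log2 fold change -3.53, SE 0.21, edgeR adjusted p = 3.22e-05). The other five had few counts and were unevenly spread over the rEEOs libraries. For Mmp13, a collagenase, replicate 1 of rEEOs had 162 counts, replicate 2 none and replicate 3 28, and rBMSCs had 1. Mmp7, or matrilysin, an epithelial enzyme, had 41, 0 and 4 counts and none in rBMSCs. Mmp3, or stromelysin-1, had 5, 0 and 7 counts compared to 3, 1 and 0 in rBMSCs. All 3 were absent from the counts of rEEOs replicate 2. Mmp9, a gelatinase, had 13 counts in rEEOs replicate 1 and none elsewhere. Mmp11, or stromelysin-3, had 7.91, 53 and 55 counts in rEEOs and none in rBMSCs.

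Mmp13, Mmp3 and Mmp7 lie in a cluster of metalloproteinase genes on chromosome 8, with 2 protein-coding genes between Mmp13 and Mmp3 and 5 between Mmp3 and Mmp7 in GRCr8. Their start regions are shown because, among the members with a window, they were the only ones with both the AP-1 motif and TATAAA in the window. The sequences are again the 250 bases before the RefSeq start, at chr8:12782579-12782828, plus strand for Mmp13, chr8:12925031-12925280, plus strand for Mmp3 and chr8:13132793-13133042, plus strand for Mmp7, with TGACTCA or its reverse complement TGAGTCA and TATAAA in capitals.
Mmp13: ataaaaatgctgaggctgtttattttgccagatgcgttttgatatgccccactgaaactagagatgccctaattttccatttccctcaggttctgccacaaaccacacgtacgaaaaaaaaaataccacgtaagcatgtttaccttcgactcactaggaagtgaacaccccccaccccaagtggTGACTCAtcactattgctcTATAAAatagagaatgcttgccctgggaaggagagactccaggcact
Mmp3: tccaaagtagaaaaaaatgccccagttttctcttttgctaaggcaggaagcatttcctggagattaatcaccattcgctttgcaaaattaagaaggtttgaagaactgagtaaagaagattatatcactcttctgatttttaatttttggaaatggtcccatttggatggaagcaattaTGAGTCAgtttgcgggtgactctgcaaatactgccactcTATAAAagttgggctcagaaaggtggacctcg
Mmp7: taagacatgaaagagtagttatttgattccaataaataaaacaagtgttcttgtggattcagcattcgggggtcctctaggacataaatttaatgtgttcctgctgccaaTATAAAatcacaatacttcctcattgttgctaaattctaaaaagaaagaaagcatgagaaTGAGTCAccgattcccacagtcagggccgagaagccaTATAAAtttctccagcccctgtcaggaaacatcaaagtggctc
The AP-1 motif lay 66 bases before the start in Mmp13, 71 in Mmp3 and 80 in Mmp7. TATAAA, searched on the gene's strand, lay 47 bases before the start in Mmp13, 32 in Mmp3 and 140 and 43 in Mmp7. Both motifs occurred together in 3 of the 67 member windows, the 3 shown, and in 0.514% of all windows. The AP-1 motif, searched on both strands, was in 8 of the 67 member windows (11.9%) and in 4.63% of all windows. TATAAA was in 7 (10.4%) and in 8.80%. The search for TATAAA was added to a planned search for the AP-1 motif, and no test was run on either. All 3 genes were under the count filter of the edgeR test. Over all genes with a count, DESeq2 gave Mmp13 a log2 fold change of 7.23 (adjusted p = 0.0014), Mmp7 6.09 (adjusted p = 0.0404) and Mmp3 1.56 (adjusted p = 0.507). edgeR without the filter gave 6.89 (adjusted p = 0.0273), 6.71 (adjusted p = 0.0787) and 1.47 (adjusted p = 0.365) in the same order.

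Among the Timp inhibitors, Timp2, which inhibits metalloproteinases and also takes part in activation by Mmp14, had 479, 462 and 480 TPM in rBMSCs and 50.2, 30.4 and 36.3 TPM in rEEOs. The fitted log2 change was -3.37 (SE 0.14, edgeR adjusted p = 9.39e-06). Timp1 had 290, 316 and 312 TPM in rBMSCs and 113, 88.6 and 112 TPM in rEEOs. The groups did not overlap, and the log2 fold change of -1.24 (SE 0.16, edgeR adjusted p = 0.000708) was under the threshold of 2. Timp3, which binds to the matrix and also inhibits Adam17, had 11, 10 and 6 counts in rBMSCs and 17, 0 and 250 counts in rEEOs. On the log2 scale the difference was 3.40 (SE 1.69, edgeR adjusted p = 0.12), 4.01 (adjusted p = 0.0335) without rEEOs replicate 2 and -0.28 without replicate 3. DESeq2 called it higher (adjusted p = 0.0494). The level of Mmp14 relative to Timp2 was 0.648 ± 0.00773 in rBMSCs and 1.53 ± 0.405 in rEEOs. From CPM, which leaves out transcript length, the log2 ratio was 0.042 in rBMSCs and 1.25 in rEEOs, so which of both genes was higher in rBMSCs depends on the scale.

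**Figure D4:**
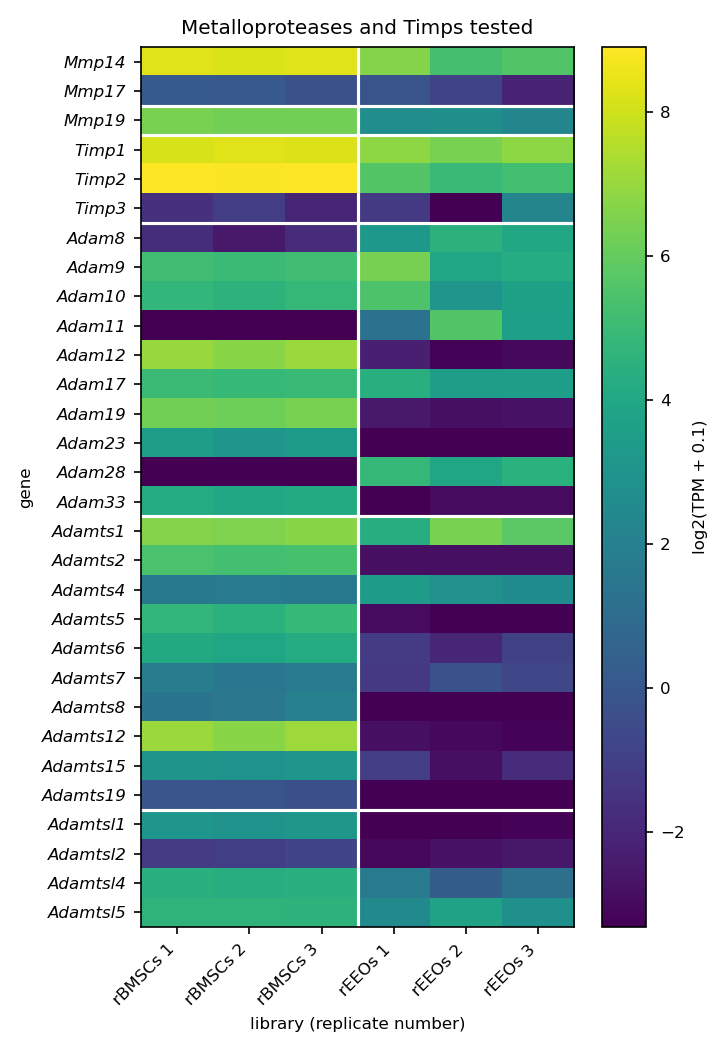
log2(TPM + 0.1) of the metalloproteinase, Timp, Adam, Adamts and Adamtsl genes tested (rows) in the 6 libraries (columns), with white lines between role groups and cell types. Adam12, Adam19, Adamts2 and Adamts12 are bright in rBMSCs and near the floor in rEEOs, while Adam8, Adam11 and Adam28 show the opposite; Adam9 and Adam10 are brightest in rEEOs replicate 1.

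The Adam family, membrane proteases of which some shed growth factors and receptors from the cell surface, was split by gene. Of 13 members, 10 were tested, 3 were higher (Adam8, Adam11 and Adam28), 4 were lower (Adam12, Adam19, Adam23 and Adam33) and 3 were not called (Adam9, Adam10 and Adam17). The shares over all genes tested were 16.3% higher and 13.3% lower. Adam11 and Adam28 reached 10 counts in rEEOs libraries alone, and Adam19, Adam23 and Adam33 in rBMSCs libraries alone. Adam12, a mesenchymal and muscle protease that cleaves Igf binding proteins, had 128, 106 and 135 TPM in rBMSCs and 13, 1 and 3 counts in rEEOs. This came to -10.91 on the log2 scale (SE 0.59, edgeR adjusted p = 2.28e-05) and -12.10 without rEEOs replicate 1. Adam19 had 79.2, 73.1 and 86.4 TPM in rBMSCs and at most 6 counts in a rEEOs library (log2 fold change -10.19, SE 0.20, edgeR adjusted p = 4.02e-06). Adam23, a form without protease activity, had 11.4, 8.58 and 10.2 TPM in rBMSCs and no count in rEEOs, at least 181-fold lower.

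Adam8, known from leukocytes and from some epithelia, had 8.96, 22.9 and 15.4 TPM in rEEOs and 0.2, 0.08 and 0.19 TPM in rBMSCs. edgeR fitted a log2 change of 7.05 (SE 0.65, adjusted p = 0.000179). The haematopoietic marker list was also lowest in replicate 1 and highest in replicate 2, almost entirely through Cd68, and its part in the level of Adam8 was not tested. Adam11, another form without protease activity, had 89, 1939 and 471 counts in rEEOs and none in rBMSCs, at least 316-fold higher (edgeR adjusted p = 0.0139). Replicate 2 held most of its counts, and its fitted log2 fold change, which depends on the prior count, moved from 12.89 to 11.26 without that library. Adam28, named after its values were seen, had 28.3, 14.7 and 22.2 TPM in rEEOs, with no rBMSCs count and thus at least 270-fold more.

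The sheddases Adam10 and Adam17, which release Notch fragments, Egf family ligands and Tnf, were read in both cell types. Adam17 had 31.9, 28.9 and 31.5 TPM in rBMSCs and 20.3, 11.2 and 11.2 TPM in rEEOs. The fitted log2 change was -0.91 (SE 0.15, edgeR adjusted p = 0.00201). Adam10 had 27.6, 23.7 and 28.5 TPM in rBMSCs and 44.3, 8.19 and 12.9 TPM in rEEOs. Adam9 had 36.1, 32.3 and 36.1 TPM in rBMSCs and 84.8, 14.6 and 19.2 TPM in rEEOs. For both, rEEOs replicate 1 lay above and replicates 2 and 3 below every rBMSCs library. Their log2 fold changes were -0.20 for Adam10 (adjusted p = 0.724) and 0.27 for Adam9 (adjusted p = 0.67), and without replicate 1 they were -0.95 (adjusted p = 0.00247) and -0.61 (adjusted p = 0.00398).

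The Adamts family, secreted proteases that process procollagen and cleave proteoglycans such as aggrecan and versican, leaned to rBMSCs among the members tested. Of 14 members, 10 were tested with edgeR, 8 were lower (Adamts2, Adamts5, Adamts6, Adamts7, Adamts8, Adamts12, Adamts15 and Adamts19), and 2 were not called (Adamts1 and Adamts4). Among all genes tested, 13.3% were lower. Adamts2, Adamts5, Adamts8, Adamts12 and Adamts19 reached 10 counts in rBMSCs libraries alone, and such genes had to differ to be tested. Of the 4 not tested, Adamts3 and Adamts13 had counts in rEEOs alone and Adamts20 in rBMSCs alone. DESeq2 called Adamts3 and Adamts13 higher. Adamts12 had 133, 105 and 140 TPM in rBMSCs and 4, 2 and 1 counts in rEEOs (log2 fold change -12.19, SE 0.33, edgeR adjusted p = 4.59e-06). Adamts2, a procollagen N-proteinase, had 42.2, 37.4 and 40.2 TPM in rBMSCs and 2 counts in each rEEOs library (log2 fold change -9.95, SE 0.19, edgeR adjusted p = 4.02e-06). Adamts5, a main aggrecanase, had 27.3, 22.1 and 28.8 TPM in rBMSCs and 1 count, in replicate 1, over the rEEOs libraries, a ratio of 2098 (interval 376 to 82898). None of these overlapped between the cell types.

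Adamts7 was the member closest to the threshold from inside the family, with a log2 fold change of -2.20 (SE 0.43, edgeR adjusted p = 0.00476), and its call was lost without rEEOs replicate 1, with library sizes alone and with limma on log2(TPM + 1). Adamts1, a proteoglycan-cleaving enzyme needed for ovulation and uterine function in rodents, had 98.5, 92.2 and 107 TPM in rBMSCs and 19.7, 87.5 and 54.7 TPM in rEEOs. In TPM, every rEEOs library lay below the rBMSCs libraries. In counts, which edgeR uses, rEEOs replicate 2 lay above them, with 4546 compared to 4337, 4300 and 4504, although its library was the smallest. The spread in rEEOs was wide, and the log2 fold change of Adamts1 was -0.51 (SE 0.59, edgeR adjusted p = 0.472). Adamts4, the other main aggrecanase, ran the other way, with 2.96, 3.11 and 2.93 TPM in rBMSCs and 10.3, 7.15 and 6.05 TPM in rEEOs. Its log2 fold change of 1.60 (SE 0.18, edgeR adjusted p = 0.000399) was under the threshold of 2. Of the substrates named above, aggrecan (Acan) had 477 ± 37.5 TPM and versican (Vcan) 57.6 ± 8.58 TPM in rBMSCs, compared to 3 counts and 1 count in all of rEEOs. Another proteoglycan, decorin (Dcn), was low in rBMSCs with 0.543 ± 0.121 TPM and had no count in rEEOs.

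The Adamts-like genes, secreted relatives without the protease domain, followed the same direction, with 3 of 4 lower (Adamtsl1, Adamtsl2 and Adamtsl4) and Adamtsl5 not called. Among all genes tested, 13.3% were lower, and Adamtsl1 and Adamtsl2 reached 10 counts in rBMSCs libraries alone. Adamtsl1 had 8.61, 7.35 and 8.9 TPM in rBMSCs and 1 count in rEEOs, in replicate 3, a ratio of 2118 (interval 380 to 83689). Adamtsl4, linked to fibrillin microfibrils, had 21.9, 19.8 and 21.6 TPM in rBMSCs and 3.11, 1.13 and 2.21 TPM in rEEOs (log2 fold change -3.10, SE 0.28, edgeR adjusted p = 0.000167). Adamtsl5 had 24.9, 24.8 and 24.2 TPM compared to 5.54, 13.1 and 6.98 TPM in rEEOs. On the log2 scale the difference was -1.46 (SE 0.45, edgeR adjusted p = 0.029) and -2.10 (adjusted p = 0.00108) without rEEOs replicate 2.

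The remaining serpins were divided between the cell types. Serpinf1, or PEDF, a secreted serpin without inhibitory activity that is known to restrain vessel growth, was the most abundant member in rBMSCs, with 952, 1045 and 968 TPM compared to 15.6, 36.2 and 11.8 TPM in rEEOs. This came to -5.21 on the log2 scale (SE 0.58, edgeR adjusted p = 0.000394) and -6.00 without rEEOs replicate 2. Serping1, the inhibitor of complement C1, had 70.5, 55.6 and 22.1 TPM in rEEOs and 0.71, 0.45 and 0.33 TPM in rBMSCs (log2 fold change 6.82, SE 0.54, edgeR adjusted p = 9.9e-05). Serpinf2, Serpinc1 and Serpini1, named because they complete the group, had at most 16 counts in a library and were not tested.

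Of 4 serpins of clade a, both that were tested were higher in rEEOs. Both reached 10 counts in rEEOs libraries alone, and 16.3% of all genes tested were higher. Serpina1, or alpha-1-antitrypsin, the main inhibitor of neutrophil elastase, had 158, 110 and 90.2 TPM in rEEOs, with no rBMSCs count and thus at least 602-fold more (edgeR adjusted p = 3e-05). Serpina11, next to it on the chromosome, had 21, 32 and 18 counts in rEEOs and none in rBMSCs, at least 8.22-fold higher. For Serpina3n, an acute-phase inhibitor, replicate 1 of rEEOs had 1212 counts, replicate 2 none and replicate 3 295, and rBMSCs had 1. With 1212 counts in 1 library it was the untested member with the highest count.

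Clade b serpins stay mostly inside cells. Of 7 members, 4 were tested, 3 were higher and 1 was lower in rEEOs. Among all genes tested, 16.3% were higher and 13.3% lower. Serpinb5 and Serpinb8 reached 10 counts in rEEOs libraries alone, and such genes had to differ to be tested. Serpinb1a, which inhibits neutrophil proteases, had 270, 494 and 424 TPM in rEEOs and 2.45, 2.38 and 3.57 TPM in rBMSCs (log2 fold change 7.48, SE 0.49, edgeR adjusted p = 4.54e-05). Serpinb5, or maspin, known from epithelia, had 42, 436 and 378 counts in rEEOs and none in rBMSCs, at least 106-fold higher (edgeR adjusted p = 0.00958). Serpinb8, named to complete the count of 3 higher, had 8.43, 1.55 and 3.33 TPM in rEEOs and at most 0.14 TPM in rBMSCs. Serpinb9, an inhibitor of granzyme B, went the other way, with 45.7, 40.8 and 53.2 TPM in rBMSCs and 1.21, 0.73 and 0.99 TPM in rEEOs. edgeR fitted a log2 change of -5.34 (SE 0.21, adjusted p = 8.89e-06).

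Of the 8 other Prss genes, 5 were tested, 3 were higher (Prss22, Prss32 and Prss36), 1 was lower (Prss12) and Prss53 was not called. Among all genes tested, 16.3% were higher and 13.3% lower, and Prss22 and Prss32 reached 10 counts in rEEOs libraries alone. Prss22, a tryptase-like protease of airway epithelium, had 48.1, 60.8 and 38.1 TPM in rEEOs, with no rBMSCs count and thus at least 207-fold more (edgeR adjusted p = 0.000206). Prss36 had 1.39, 7.14 and 3.11 TPM in rEEOs and 0.26, 0.34 and 0.2 TPM in rBMSCs (log2 fold change 4.14, SE 0.79, edgeR adjusted p = 0.00423), or 3.29 without rEEOs replicate 2, and the call was lost with limma on log2(TPM + 1), at 1.77. Prss12, or neurotrypsin, had 12.7, 14.8 and 15.8 TPM in rBMSCs and 10, 0 and 4 counts in rEEOs (log2 fold change -6.22, SE 0.65, edgeR adjusted p = 0.000311), or -7.14 without rEEOs replicate 1.

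The 3 Htra proteases took 3 different courses. Htra2, a mitochondrial protease, had 48.7, 53.6 and 48.6 TPM in rBMSCs and 40.4, 58 and 45.5 TPM in rEEOs, and the groups overlapped (log2 fold change 0.23, SE 0.27, edgeR adjusted p = 0.471). Htra3, a secreted protease, had 7.15, 7.84 and 7.29 TPM in rBMSCs and 0.2, 0.22 and 0.79 TPM in rEEOs. The fitted log2 change was -3.93 (SE 0.61, edgeR adjusted p = 0.00166) and -4.97 without rEEOs replicate 3. Htra4 had 8.46, 3.79 and 3.94 TPM in rEEOs and 1, 3 and 1 counts in rBMSCs (log2 fold change 7.56, SE 0.45, edgeR adjusted p = 3.2e-05), or 8.21 without rBMSCs replicate 2.

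The rEEOs libraries differed in these genes, and the rBMSCs libraries hardly did. Over all genes tested, the median SD of log2(CPM + 1) was likewise larger in rEEOs (0.340) than in rBMSCs (0.088), and 0.164 in rEEOs without replicate 1. The share of all genes past the 2-fold limit below was not counted. Among the 48 members with a mean of at least 1 TPM in rEEOs, 12 were more than 2-fold higher in replicate 1 than in both other rEEOs libraries and 6 were more than 2-fold lower. The numbers were 4 and 7 in replicate 2 and 2 and 1 in replicate 3. Among the 35 members of that level in rBMSCs, none lay that far apart in any library. The genes high in replicate 1 included Mmp7, Mmp13, Mmp14, Adam9, Adam10, Serpina3n, Tmprss11b and Tmprss11g. Those low in it included Mmp11, Adam11, Adamts1 and Serpinb5. In replicate 2, 8 members had no count while both other rEEOs libraries had some (Mmp3, Mmp7, Mmp13, Timp3, Prss12, Serpina3n, Serpinb12 and Serpinb7). Serpinb3a had 73 counts in replicate 1 and none in the others, and Serpina10 had 65 counts in replicate 3 and none in the others. The members listed here were chosen by these counts after the values were seen. The mesenchymal markers summed to 172, 298 and 229 TPM in rEEOs replicates 1, 2 and 3, almost entirely through Vim (171, 297 and 227 TPM). The epithelial markers summed to 5147, 4986 and 5552 TPM. The part of both lists in these differences was not tested.

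**Figure D5:**
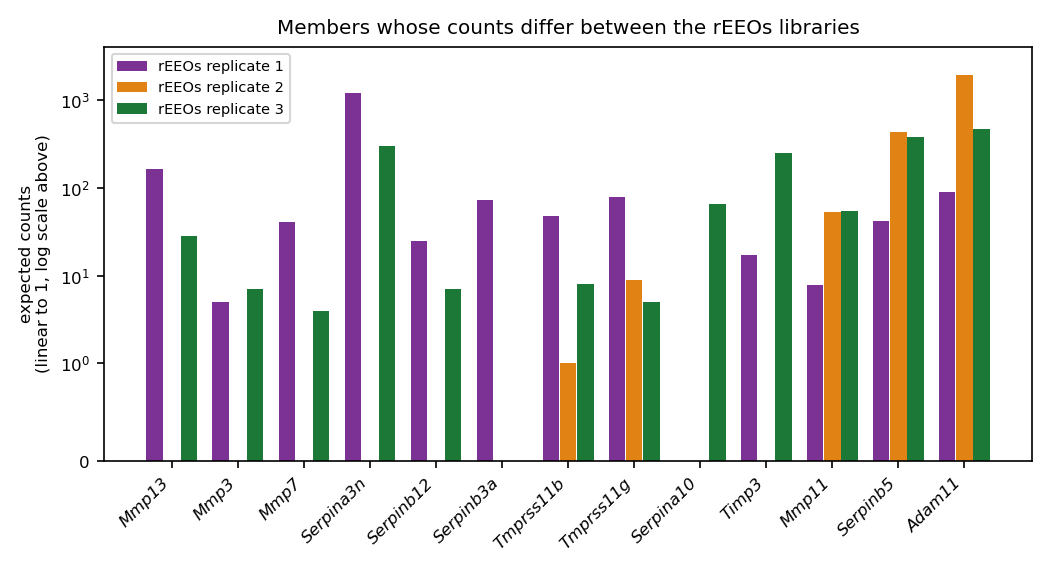
Expected counts of 13 members in the 3 rEEOs libraries, on an axis that is linear up to 1 count and logarithmic above it, with 1 bar for each replicate. Mmp13, Mmp7 and Serpina3n are high in replicate 1 and at 0 in replicate 2, Serpina10 and Timp3 are high in replicate 3, and Adam11 is highest in replicate 2.

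Members that lie beside each other in GRCr8 did not always go the same way. Prss8 and Prss36 are neighbours and were both higher in rEEOs, as were Serpina1 and Serpina11. Tmprss4 and Tmprss13, with 2 protein-coding genes between them, were also both higher. Adamts15 and Adamts8 are neighbours and were both lower, but St14, which follows Adamts8 with 1 gene between them, was higher. Serpinb9 was lower and Serpinb1a, with 1 gene between them, was higher. Adamts5 was lower and its neighbour Adamts1 was not called.

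Other genes of pericellular proteolysis were followed from a list of 50, of which 39 were held and 36 tested. Of these, 11 were higher, 16 lower and 9 not called in rEEOs, with a median log2 fold change of -0.67, compared to 16.3% higher and 13.3% lower among all genes tested. Substrates and regulators of matrix proteases were among those lower in rEEOs: fibronectin (Fn1) had 2787 ± 299 TPM compared to 0.357 ± 0.398 TPM, and the procollagen C-proteinase enhancer Pcolce 1910 ± 40.7 TPM compared to 0.983 ± 0.760 TPM. The C-proteinase Bmp1 had 217 ± 5.34 TPM in rBMSCs and 9.02 ± 3.33 TPM in rEEOs, and its relative Tll1 had 68.0 ± 5.93 TPM and no count. Lrp1, a receptor that clears protease and serpin complexes, had 194 ± 28.8 TPM compared to 2.65 ± 1.03 TPM (log2 fold change -5.99, SE 0.26).

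The genes higher in rEEOs included the cathepsins Ctsb, Ctsh and Ctsz and epithelial proteins. The cathepsins were split, as Ctsk was lower (log2 fold change -6.38, SE 0.58) and Ctsl was not called (log2 fold change 1.19, SE 0.22). Ctsb had 3322 ± 1701 TPM in rEEOs and 549 ± 19.8 TPM in rBMSCs, and Ctsh 1263 ± 572 TPM compared to 89.7 ± 6.81 TPM. The elastase inhibitor Slpi was not counted in rBMSCs and had 7660, 1408 and 953 TPM in rEEOs, with replicate 1 far above the others. Hepsin (Hpn), another membrane serine protease, had 80.8 ± 3.41 TPM and no count in rBMSCs. F2rl1, a receptor that matriptase and trypsin-like proteases can activate, had 26.1 ± 12.2 TPM compared to 0.273 ± 0.0473 TPM, while the thrombin receptor F2r had 7.53 ± 6.26 TPM in rEEOs and 196 ± 16.2 TPM in rBMSCs. Plasminogen itself (Plg) had no count in rEEOs and 4 in rBMSCs.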

How the data were processed

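Bulk RNA was poly(A)-selected and sequenced by the authors in 3 rEEOs and 3 rBMSCs samples. Per the labels and methods, reads were trimmed with Trim Galore, aligned to the rat genome (Rnor_6.0 in the submitters' processing notes) with Bowtie2 2.2.5 and counted with RSEM. Per gene, the deposited table gives RSEM's expected count, which is not normalized, beside a TPM and an FPKM in every library. The authors' FPKM values entered no comparison. The copy analysed holds 13728 genes, whose TPM sums to 81.3% to 82.7% of the full total. Its last row is cut short with 23 of 27 fields, and genes outside it were not analysed here.

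After rounding of the expected counts, 10607 genes reached 10 counts in 3 or more libraries and were tested in R 4.3.3 with edgeR 4.0.16 (TMM, glmQLFit, glmQLFTest) without a covariate. Genes were called at the study's thresholds, an absolute log2 fold change above 2 and an adjusted p below 0.05. The standard error is the size of the log2 fold change divided by the square root of F. Alternatives were DESeq2 1.42.0 over all genes with a count, DESeq2 size factors, library size only, no filter, 50 counts in 3 libraries, limma 3.58.1 on log2(TPM + 1), with and without the filter, or log2(TPM + 0.1), a threshold of 1, a replicate block and leaving out each library. The tests were run on simulated data with known changes first. Folds against no count use 3 counts per library, 0.181 to 0.262 CPM, and like the intervals cover counting error only. An exact permutation test of 1 gene, 3 against 3, cannot give a p below 0.1. The labels do not say that replicate numbers pair the samples, so the main fit used no pairing.

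The members, role groups and lists were chosen with earlier results of these data known. Values are given for a core of known genes, the 2 most abundant members of each role group in each cell type, and the 5 largest and 5 smallest log2 fold changes past both thresholds without overlap. Of the 36 genes listed for the core, 29 were members, and Mmp2, Mmp10, Mmp15, Reck, Serpinb2, Htra1 and Klk10 were not. The members' counts and sums include 1 gene whose values are not reported here, as is the summed level of the plasminogen activation genes. Others are named where a count is spelled out, and were then chosen after their values were seen. All 88 members matched RefSeq genes of GRCr8 by gene ID and symbol. GRCr8 differs from the authors' build, so it was used for gene order and start regions only. In GRCr8, 35 members overlap another gene, among them Timp1, Timp2, Timp3, Plau, Plat, Prss8, Tmprss4 and Spint2. Whether the counting used strand is not given in the sources used here, so reads of such partners may be mixed. Counts that were not whole, by more than 0.005, occurred in 7 members (Spink5, Adamts13, Prss39, Adam4, Adam28, Plat and Mmp11), whose reads RSEM shared with other genes. Tables and figures were made in Python 3.11.15 with matplotlib 3.10.9, scipy 1.17.1, numpy 2.4.6 and pandas 2.3.3.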

Additional observations from a re-analysis of the deposited data

How the results depend on the processing

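Of the 47 named members that were tested, 43 could be run under all 16 alternatives, and 33 of these kept their direction and their side of the thresholds in each. The other 4 (Mmp17, Prss53, Serpinb5 and Timp3) fell under a filter in at least 1. DESeq2 called 37 members higher against 23, with 23 shared, over all genes with a count: secreted MMPs 3 higher, Timps 1, Adamts 2, membrane serine proteases 10 and other Prss 5, with 2 serpins of clades c to i lower. Without a filter, 2 secreted MMPs, 2 Adamts and 5 other Prss were higher and 2 serpins of clades c to i lower. The number of all genes called higher rose as well, from 1733 to 2121 with DESeq2 and to 2167 without a filter. With limma on log2(TPM + 1), 1 other Prss and 1 clade a serpin were higher, with or without the filter, and all genes called higher numbered 1121 or, without the filter, 1124. A filter of 50 counts also left 1 clade a serpin. At a threshold of 1, all genes called higher and lower numbered 2663 and 2287, with 1 Adamts higher and 2 Timps lower. Library sizes alone moved the median log2 fold change of all genes from 0.08 to 0.46 and left 0 membrane MMPs lower. With each library left out, 23 to 24 members were higher and 23 to 24 lower. Membrane MMPs lower ranged from 0 to 1 and Timps higher from 0 to 1, both through rEEOs replicate 2.

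Signs changed for members that were not called. Adam10 was 0.21 with library sizes alone and ranged from -0.95 to 0.16 with a library left out. Adam9 was -0.25 with limma (-0.27 with a pseudocount of 0.1), -0.034 with the replicate block and -0.61 to 0.63 with a library left out. Htra2 was -0.082 with limma (-0.084 with a pseudocount of 0.1) and -0.014 to 0.49 with a library left out. Plaur was -0.35 with limma (-0.37 with a pseudocount of 0.1), -0.098 with the block and -0.40 to 0.40 with a library left out. With a library left out, Prss53 ranged from -0.054 to 1.80, its lowest without rEEOs replicate 2, and Timp3 from -0.28 without rEEOs replicate 3 to 4.01 without replicate 2. The cause of these changes was not tested. The replicate block changed no member's call, with 23 higher and 24 lower, and the correlations of same-numbered samples were 0.17, 0.19 and -0.17.

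Without its most abundant gene, the log2 ratio of summed TPM (rEEOs over rBMSCs) was 5.71 in secreted MMPs, -0.98 in other Prss, -1.44 in clade b serpins and 5.53 in clades c to i, each of the opposite sign. It was -0.97 in membrane MMPs, -1.53 in Timps, -0.57 in Adams, -4.62 in Adamts, -3.76 in Adamtsl, 9.68 in membrane serine proteases, -0.36 in Htra and 13.58 in Spint and Spink. No value was given for clade a serpins, which had at most 1 count in rBMSCs. From CPM in place of TPM, which leaves out length, the log2 ratio of Mmp14 to Timp2 was 0.042 in rBMSCs, of opposite sign, and 1.25 in rEEOs. That of St14 to Spint1 in rEEOs was -0.15 and that of Prss8 to Spint2 in rEEOs -2.39. Libraries of this depth leave genes near 3 counts undecided.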
